A study of Mus musculus with 8 samples.

Results

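Kinesins are the motor proteins that walk along microtubules, and the family examined here comprises 44 of the 24411 gene symbols listed for each heart. Members were taken by name: the numbered Kif genes, the Kifc genes, and the light chain genes Klc1, Klc2 and Klc4. The family was taken up, and the contrast between transport and mitotic members drawn, with the genotype differences of these genes already known, so their differences between genotypes, and which of them pass the threshold used for all genes, describe these libraries only and are evidence for nothing. Libraries of polyadenylated RNA came from 8 hearts of C57BL/6 mice, all taken 1 week after transverse aortic constriction, which narrows the aorta and loads the left ventricle with pressure. The 4 YY1 KO mice had a cardiac-specific knockout of the transcription factor Yin-Yang 1. The 4 control mice carried MerCreMer, a Cre recombinase that works only once a ligand has been given, and had the same operation, so no unoperated heart entered the comparison. The Cre line of the knockouts, the promoter that drives MerCreMer, the ligand and the ages stand in none of the labels, and all mice are described as male.

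The libraries held 14582605 to 16000455 reads assigned to genes. Levels are CPM, read counts relative to the scaled total of gene reads of a library, with the standard deviation (SD) over the 4 hearts of a genotype. Yy1, the deleted gene, stood at 21.04 ± 2.55 CPM in the knockout hearts and 36.1 ± 1.58 CPM in the controls, a knockout level of 58.3% of control. A two-sided exact permutation test gave p = 0.0286, the smallest value that 4 against 4 libraries allow. Although the labels call every mouse male, 4 libraries held 2156 to 3512 reads of Xist and 0 to 2 of the Y-linked gene Ddx3y, whereas the other 4 held 0 to 6 and 866 to 1152. The Xist-positive hearts were controls 1 and 4 and YY1 KO 1 and 4, so each genotype had 2 of each kind. Among 8 cardiomyocyte markers the summed level was 75186 to 100603 CPM in controls and 51991 to 74104 CPM in knockouts, so the labelled tissue was borne out by its markers. In whole heart, fewer cells of a type and less RNA per cell cannot be told apart.

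Kinesins use ATP to move, most of them towards the plus end of microtubules. Transport members carry vesicles, mitochondria, mRNA and intraflagellar particles, and in the cardiomyocyte, whose microtubules form a dense cage around nucleus and myofibrils, kinesin-1 is known to move mitochondria, nuclei and mRNA. Mitotic members build the spindle, move chromosomes and complete cytokinesis, and they are transcribed mainly in dividing cells. By this textbook function 20 members were classed as transport kinesins (light chains included), 13 as mitotic, and 11 as other, the last holding ciliary motors, microtubule depolymerases and members without motor activity.

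Transport kinesins made up nearly all kinesin transcripts, and several were higher in knockout hearts. The summed level of the 20 transport members was 2389 to 2720 CPM in controls and 2680 to 3569 CPM in knockouts. The 13 mitotic members summed to 15.3 to 156 CPM and 19.02 to 63.2 CPM, and the 11 others to 61.5 to 89.7 CPM and 60.01 to 67.5 CPM. Per kilobase of exon, Kif1c was the most abundant member, at a mean of 182 CPM per kb over the 8 hearts. Klc1 followed at 44.6, Kif5b at 34.01, Kifc3 at 31.3, Kif13a at 26.5, Klc2 at 22.4, Klc4 at 19.4 and Kif1b at 17.9 CPM per kb. No mitotic member exceeded the 1.72 CPM per kb of Kif20a.

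Of the 44 members, 39 had enough reads to enter the fit over all 13506 genes, in which 38.9% of all genes passed an adjusted p under 0.05 between genotypes, 21.6% higher and 17.3% lower in knockouts (edgeR quasi-likelihood F test, p-values adjusted by Benjamini-Hochberg). Among the members 12 passed, 7 higher and 5 lower, a count given as a description since the members were chosen with this contrast known. By class, 6 transport members were higher and 2 lower of 19 fitted, none of the 13 mitotic members passed in either direction, and 1 other member was higher and 3 lower of 7 fitted. The median log2 fold change (YY1 KO minus control) was 0.18 for transport, −1.31 for mitotic and −0.01 for other members, against 0.01 for all genes fitted. The values of the 2 genotypes did not overlap for 11 of the 39 members, 8 higher and 3 lower, where 38.3% of all genes did not overlap (21.8% higher, 16.5% lower).

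**Figure D1:**
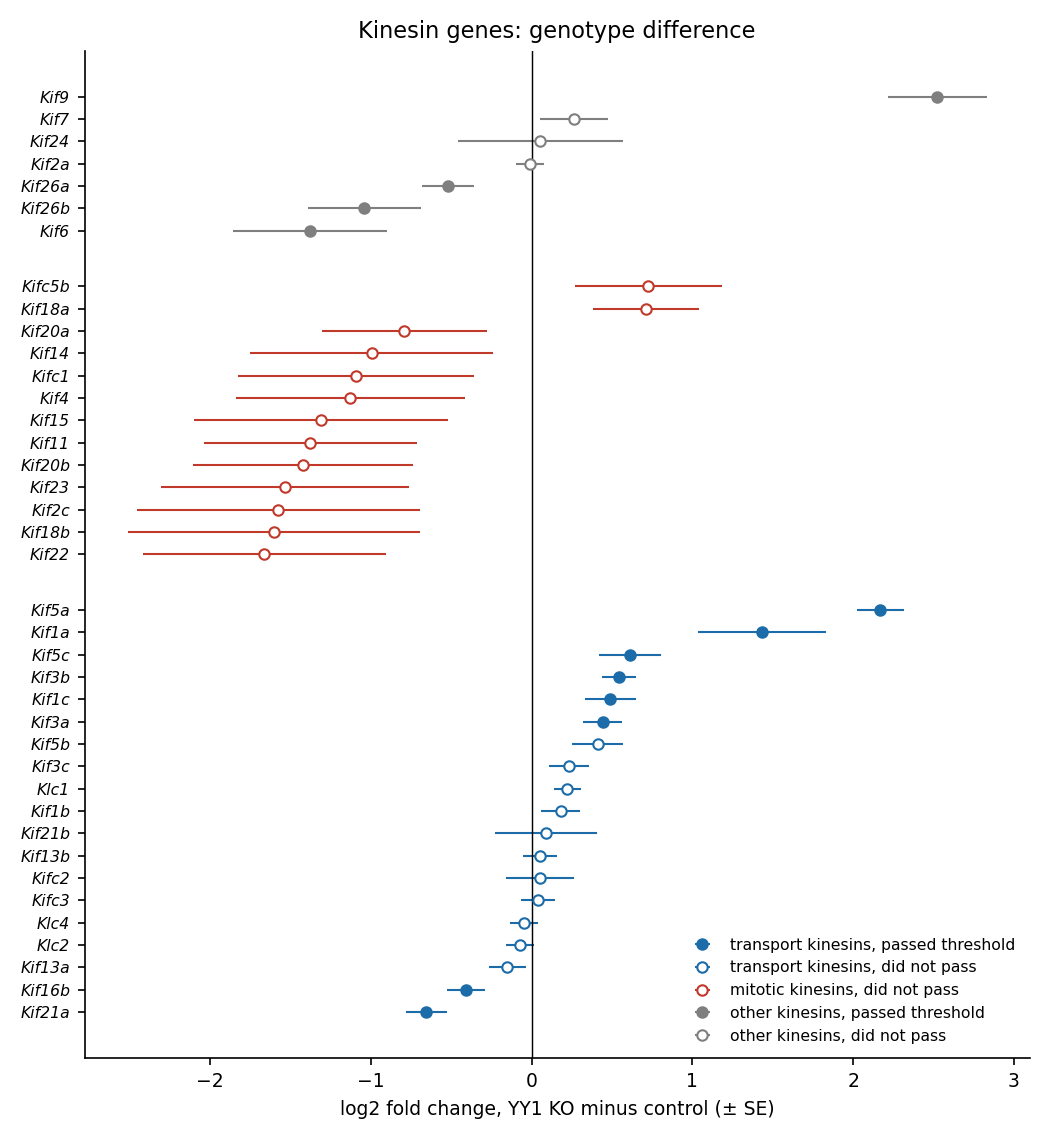
Log2 fold change (YY1 KO minus control, horizontal axis) with its standard error for the 39 kinesin genes fitted, grouped by class; filled points are those with an adjusted p under 0.05 over all genes. Transport members spread from −0.65 (Kif21a) to 2.17 (Kif5a) with narrow errors, whereas 11 of 13 mitotic members lie below 0 with wide errors and none is filled.

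Kinesin-1, the motor of mitochondria, nuclei and mRNA, is a dimer of heavy chains, encoded by Kif5a, Kif5b and Kif5c, that can bind light chains for cargo. Kif5a (mm10 chromosome 10, 127225696 to 127263348, minus strand), a form known mainly from neurons, was at 2.96, 3.63, 3.73 and 3.23 CPM in the 4 controls and at 13.9, 15.4, 18.2 and 13.5 CPM in the 4 knockouts. Every knockout heart was above every control, with means of 15.3 ± 2.12 against 3.39 ± 0.358 CPM and a log2 fold change of 2.17 ± 0.15 (SE). The call was kept in all 18 alternative settings, with log2 fold changes of 2.07 to 2.22. Within the 4 Xist-positive hearts the log2 fold change was 2.14, and within the 4 Xist-negative hearts 2.17. Kif5c, the other heavy chain known from neurons, was at 1.76, 2.42, 2.46 and 2.59 CPM in controls and 3.98, 2.99, 3.57 and 3.62 CPM in knockouts, again without overlap. Its log2 fold change was 0.61 ± 0.19, from 25 to 67 reads per library, and the call was lost in 9 settings, among them without any single library other than YY1 KO 2 (log2 fold changes of 0.50 to 0.69). Kif5b, the heavy chain expressed in most cells, was at 169, 230.4, 286 and 247 CPM in controls and 343, 276, 336 and 284 CPM in knockouts. Control 3 lay above YY1 KO 2 and 4, and the log2 fold change of 0.41 ± 0.16 did not pass; it passed with DESeq2 and without control 3.

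Kif5a remained a minor part of the heavy chain transcripts in both genotypes. Scaled to exon length, Kif5a supplied 1.65 ± 0.240% of the summed Kif5 level in controls and 5.28 ± 0.713% in knockouts (n = 4 each), Kif5c 1.09 ± 0.0994% and 1.20 ± 0.104%, and Kif5b 97.3 ± 0.303% and 93.5 ± 0.654%. The lowest knockout share of Kif5a was 4.36% (YY1 KO 1) and the highest control share 1.94% (control 1). The summed heavy chain level was 30.01 ± 6.21 CPM per kb in controls and 41.5 ± 4.51 in knockouts, with control 1 lowest at 21.8 and control 3 highest of the controls at 36.7, just under YY1 KO 2 at 37.2.

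**Figure D2:**
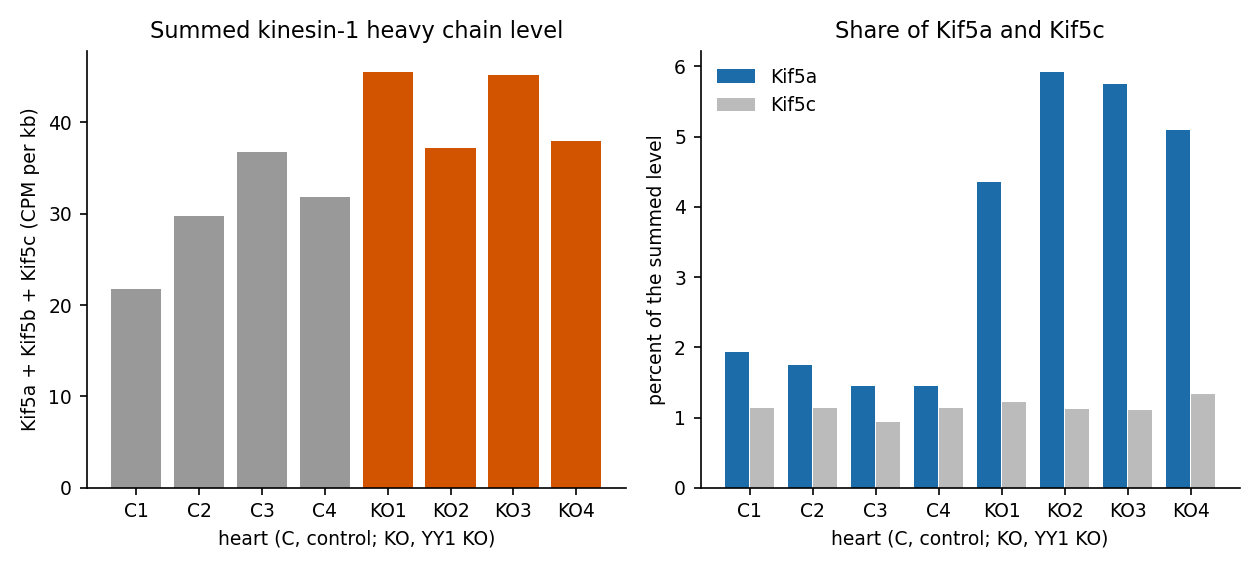
Left, summed level of Kif5a, Kif5b and Kif5c in CPM per kb of exon for each heart; right, the share of that sum from Kif5a (blue) and Kif5c (grey), in percent. Kif5a makes up 1.45 to 1.94% in the controls and 4.36 to 5.93% in the knockouts, while Kif5c stays between 0.939 and 1.33% in all 8 hearts.

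The kinesin light chains, which link the heavy chains to cargo, had small log2 fold changes, none past the threshold. Klc1 was at 152, 164, 169 and 185 CPM in controls and 195.2, 195.6, 203 and 189 CPM in knockouts. The groups did not overlap, though control 4 came close, and the log2 fold change of 0.22 ± 0.08 did not pass (it did with DESeq2 and with library size alone). Klc2 had means of 94.7 ± 9.73 and 90.1 ± 1.54 CPM (control, knockout) and Klc4 46.9 ± 3.39 and 45.4 ± 3.79 CPM. Both overlapped, with log2 fold changes of −0.07 ± 0.09 and −0.05 ± 0.09.

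Kinesin-2, formed by Kif3a with Kif3b or Kif3c and known for building cilia and carrying vesicles, was higher in its main pair. Kif3a was at 21.1, 24.8, 26.5 and 25.3 CPM in controls and 40.2, 30.9, 32.1 and 29.7 CPM in knockouts (log2 fold change 0.44 ± 0.12). Kif3b was at 21.7, 26.8, 27.2 and 26.5 CPM in controls and 39.9, 37.1, 39.7 and 32.4 CPM in knockouts (0.55 ± 0.11). Neither gene overlapped between genotypes; the Kif3b call was kept in all 18 settings and that of Kif3a in 17. Kif3c did not pass (0.23 ± 0.13), and 35.5% of its strand-resolved reads lay on the opposite strand, where the gene 1110002L01Rik overlaps it. The shares within the trio overlapped between genotypes. Kif3a supplied 52.3 ± 1.05% of the length-scaled sum in controls and 51.8 ± 1.83% in knockouts, and Kif3b 34.8 ± 0.981% and 37.2 ± 2.41%. Kif17, a homodimeric ciliary kinesin-2, had 1 to 11 reads per library and was not fitted; its levels were 0.063 to 0.141 CPM in controls and 0.325 to 0.686 CPM in knockouts.

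Kinesin-3 holds fast vesicle motors. Kif1c (chromosome 11, 70700548 to 70731964, plus strand), which carries dense-core vesicles and integrin cargo, was at 1185, 1202, 951 and 1066 CPM in controls and 1367, 1918, 1667 and 1236 CPM in knockouts. The groups did not overlap, but control 2 and YY1 KO 4 were close, and the log2 fold change of 0.49 ± 0.16 passed. The call was lost in 7 settings, among them RLE scaling and without control 2, 3 or 4 or YY1 KO 2 or 3 (0.37 to 0.58 over all settings). Kif1a, a synaptic vesicle precursor motor known from neurons, was at 0.916, 2.21, 4.17 and 3.79 CPM in controls and 10.5, 6.59, 6.95 and 6.11 CPM in knockouts. All knockouts were above all controls (log2 fold change 1.43 ± 0.40), and the call was lost in 3 settings, among them without control 2 or YY1 KO 1 (1.14 to 1.69 over all settings). Kif1b, which carries mitochondria and vesicle precursors, overlapped at 261 to 330 and 300.4 to 385 CPM (0.18 ± 0.12). Per length, Kif1c supplied 89.9 ± 0.322% of the 3 Kif1 transcripts in controls and 91.4 ± 0.737% in knockouts. The endosomal motor gene Kif16b was lower, at 87.8, 87.4, 67.3 and 69.1 CPM in controls and 53.8, 66.7, 56.8 and 57.4 CPM in knockouts (−0.41 ± 0.12), with YY1 KO 2 just under control 3. Its call was lost without control 2 or YY1 KO 1 or 3 (−0.48 to −0.35 over all settings). Kif13a and Kif13b, motors of endosomes and membrane receptors, overlapped, at means of 226 ± 12.3 and 204 ± 29.8 CPM for Kif13a and 21.5 ± 2.85 and 22.3 ± 0.972 CPM for Kif13b (control, knockout).

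Among the remaining transport members, Kif21a, a kinesin-4 that slows microtubule growth at the cell cortex, was lower. It was at 46.5, 52.7, 47.3 and 38.4 CPM in controls and 25.9, 30.4, 34.6 and 26.6 CPM in knockouts (log2 fold change −0.65 ± 0.13). The groups did not overlap and the call was kept in all 18 settings. Its paralogue Kif21b was at 2.77 ± 0.803 and 2.96 ± 1.04 CPM (control, knockout) and overlapped. The minus-end-directed Kifc3, at 164 ± 4.61 and 168 ± 23.3 CPM, and Kifc2, at 8.41 ± 2.50 and 8.71 ± 1.01 CPM, also overlapped.

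**Figure D3:**
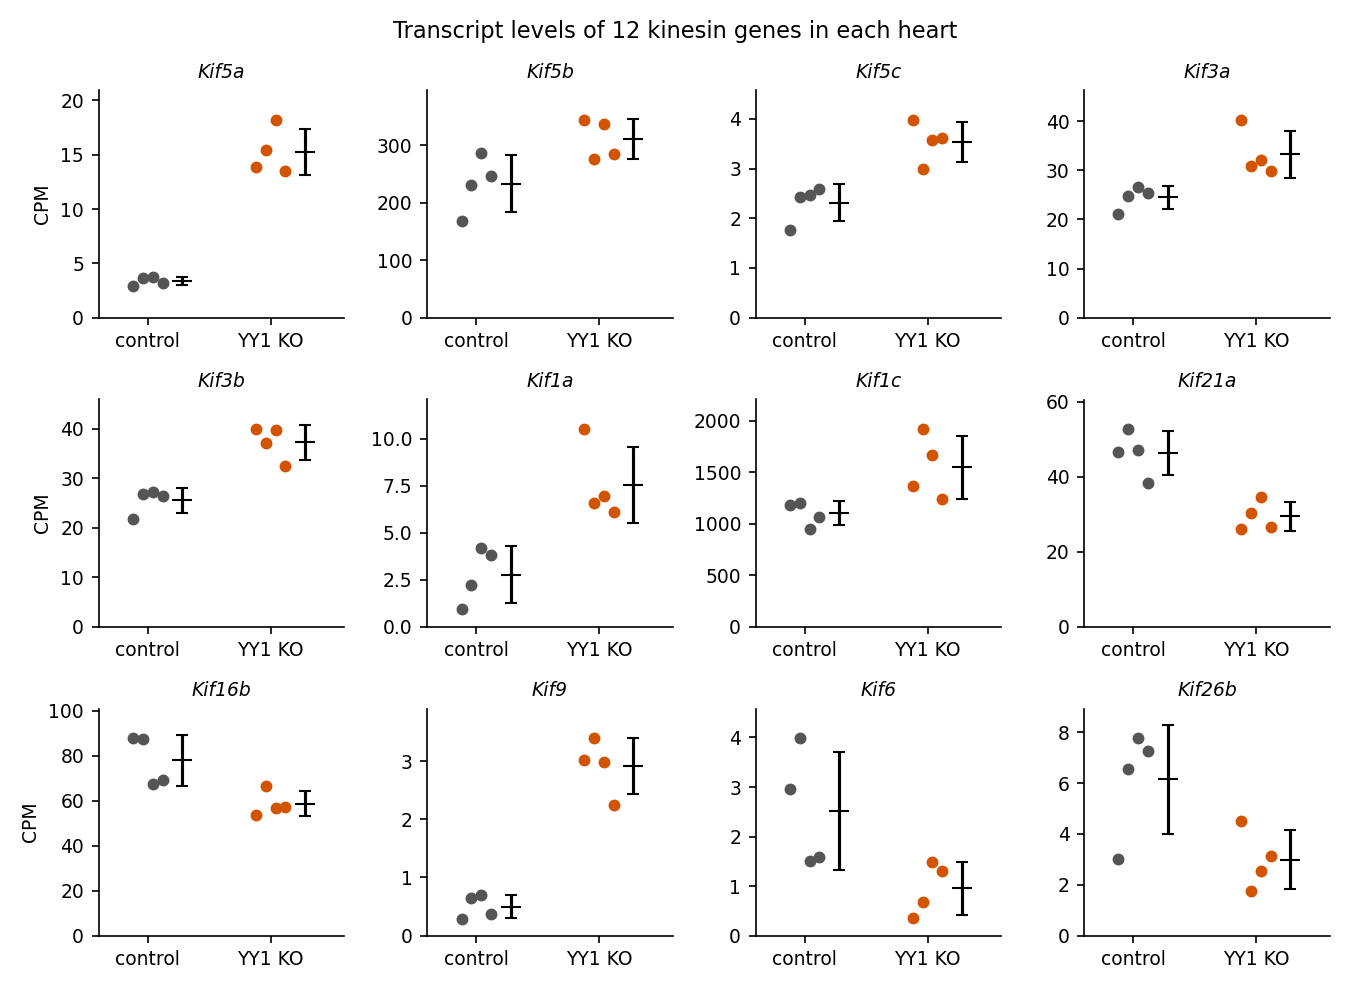
CPM (vertical axes, from 0) of 12 kinesin genes in each of 4 control (grey) and 4 YY1 KO (orange) hearts, with mean and SD beside the points. Kif5a, Kif3a, Kif3b, Kif1a and Kif9 lie higher in every knockout and Kif21a lower in every knockout, while Kif5b and Kif26b overlap.

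Markers of neurons and glia, cells in which Kif5a, Kif5c and Kif1a are known to be abundant, were low in all hearts. The 11 markers summed to 23.5 to 27.2 CPM in controls and 23.4 to 49.2 CPM in knockouts, of which Uchl1 alone supplied 7.89 to 17.3 and 16.5 to 43.3 CPM. The synaptic genes Snap25 and Syt1 did not exceed 0.136 CPM in any heart. The sum was above every control in YY1 KO 1, 2 and 3 (39.8, 49.2 and 42.4 CPM) and just below the control range in YY1 KO 4 (23.4 CPM). Uchl1 supplied the higher sums. The other markers together were lower in every knockout than in every control. Dbh was among them, at 2.53 to 5.35 CPM in controls and 0.272 to 1.18 CPM in knockouts. Without Uchl1 and Dbh the sums overlapped between genotypes, and every knockout lay above controls 3 and 4. The part of neurons and glia in the levels of Kif5a, Kif5c and Kif1a was not tested. Of the 5 markers with enough reads, Uchl1 was higher and Dbh, of noradrenaline synthesis, lower (edgeR adjusted p under 0.05). Their median log2 fold change was −0.53, with 3 of the 5 negative.

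Among the 11 other kinesins, 1 member was higher and 3 were lower. Kif9 (chromosome 9, 110476958 to 110525179, plus strand), a motor of motile cilia and flagella, was at 0.282, 0.641, 0.695 and 0.379 CPM in controls and 3.03, 3.40, 2.99 and 2.24 CPM in knockouts. All knockouts were above all controls, at 4 to 51 reads per library, and the log2 fold change was 2.52 ± 0.31, kept in all 18 settings. Reads opposite to the gene made up 33.8% of its strand-resolved reads, and these too were higher, at 0.0688 ± 0.0576 CPM in controls and 1.09 ± 0.549 in knockouts. Counted on its own strand, Kif9 was at 0.430 ± 0.221 and 1.82 ± 0.506 CPM, a log2 fold change of 2.06 ± 0.41, below the 2.17 of Kif5a, whereas with both strands it lay above. Kif6, a kinesin-9 relative, was at 2.96, 3.99, 1.52 and 1.58 CPM in controls and 0.356, 0.679, 1.49 and 1.31 CPM in knockouts (−1.38 ± 0.48). The groups met almost at control 3 and YY1 KO 3, and the call was lost in 9 settings, including without control 1 or 2 or YY1 KO 1, 2 or 4 (−1.67 to −1.08). Kif26a and Kif26b, atypical members that bind microtubules without ATPase activity, were both lower. Kif26a was at 28.7, 33.3, 45.4 and 38.5 CPM in controls and 20.1, 28.1, 24.7 and 28.9 CPM in knockouts (−0.52 ± 0.16), with control 1 just below YY1 KO 4. Its call was lost with library size alone and without control 3, control 4, YY1 KO 1 or YY1 KO 3 (−0.63 to −0.40). Kif26b was at 3.03, 6.55, 7.77 and 7.27 CPM in controls and 4.51, 1.77, 2.53 and 3.12 CPM in knockouts (−1.04 ± 0.35), overlapping through control 1. Its call was lost in 10 settings, among them without any single library other than control 1 or YY1 KO 1 (−1.31 to −0.86).

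The depolymerase gene Kif2a stood at 25.3 ± 2.19 and 25.2 ± 0.974 CPM (control, knockout), with a log2 fold change of −0.01 ± 0.09. Kif7, a ciliary regulator of Hedgehog signalling, was at 3.32 ± 0.637 and 3.99 ± 0.703 CPM, and Kif24, a centriolar depolymerase, at 0.749 ± 0.432 and 0.782 ± 0.438 CPM; neither passed. Kif19a and Kif27, both ciliary, were not fitted. Kif19a was at 0.190 to 0.821 CPM in controls and 0.187 to 0.416 CPM in knockouts. Kif27 was at 0.0704 to 0.253 and 0.499 to 1.07 CPM, but 56.7% of its strand-resolved reads lay on the opposite strand. Without a filter on low counts, Kif17 and Kif27 passed as higher. Kif12 and Kif2b had no read in any library, which allows up to 0.178 to 0.214 CPM per library (3 reads, counting error only).

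The mitotic kinesins varied several-fold among hearts of the same genotype, and for all 13 the values of the genotypes overlapped. Kif11, the motor that separates the spindle poles, was at 2.04, 6.76, 21.3 and 15.9 CPM in controls and 7.83, 1.77, 2.99 and 5.11 CPM in knockouts. Kif23, needed for the central spindle and cytokinesis, was at 1.69, 7.97, 24.3 and 16.3 CPM in controls and 8.31, 0.883, 2.66 and 5.42 CPM in knockouts. For both genes control 3 was highest, and controls 1 and 2 lay within the knockout range. Kif22, which moves chromosome arms, was at 1.13, 5.98, 17.4 and 9.87 CPM in controls and 4.15, 0.679, 1.49 and 4.49 CPM in knockouts. Kif20a, another cytokinesis motor, was at 3.17, 5.70, 17.1 and 11.9 CPM in controls and 8.01, 3.12, 3.57 and 7.17 CPM in knockouts.

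Control 3 had the highest level of all 8 hearts for 11 of the 13 mitotic members. Control 1 was the lowest control for all 13, and YY1 KO 2 the lowest knockout for 11. The highest control exceeded the lowest by 2.64 to 28.3-fold over mitotic members (median 10.5-fold), against 1.07 to 4.55-fold (median 1.26-fold) over the 19 fitted transport members. Of the 13 members 11 had a negative log2 fold change, from −1.66 ± 0.76 (Kif22) to −0.79 ± 0.51 (Kif20a), and 0 passed in edgeR, with 0 at an unadjusted p under 0.05. DESeq2 called 1 (Kif22) lower, where it called 20.8% of all genes lower, and limma-voom called 0. Without control 1, 5 were called lower (Kif11, Kif15, Kif20b, Kif22 and Kif23), with 17.8% of all genes lower. Without control 3, Kif18a was called higher (log2 fold change 0.99), with 19.4% of all genes higher. In the Xist-negative hearts alone 9 mitotic members were called lower, with 11.8% of all genes lower, and in the Xist-positive hearts alone, where no gene of any kind passed, 7 of 13 were below 0. The interaction of genotype with Xist was not called for any gene (edgeR; lowest adjusted p among members 0.812, 1 of 39 members at an unadjusted p under 0.05), and a difference between these subsets was not shown.

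Kif18a, which limits chromosome movement at kinetochores, and Kifc5b were the exceptions in sign. Kif18a was at 1.20, 2.06, 3.16 and 1.90 CPM in controls and 5.10, 2.78, 2.73 and 3.05 CPM in knockouts (0.71 ± 0.33), with control 3 above 3 of the 4 knockouts. Kifc5b was at 0.986, 1.85, 5.18 and 3.23 CPM in controls and 4.69, 7.06, 3.57 and 3.43 CPM in knockouts (0.73 ± 0.46). Its paralogue Kifc1, which focuses spindle poles, had the opposite sign (−1.09 ± 0.73). Of the 50-base words in Kifc1 transcripts, 38.6% also occur in Kifc5b transcripts, and reads mapping to both are not counted, so both levels are uncertain. For Kif20a 47.6% of strand-resolved reads lay on the opposite strand, where Cdc23 overlaps it; on its own strand it was at 10.9 ± 7.54 and 5.21 ± 4.08 CPM (control, knockout).

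**Figure D4:**
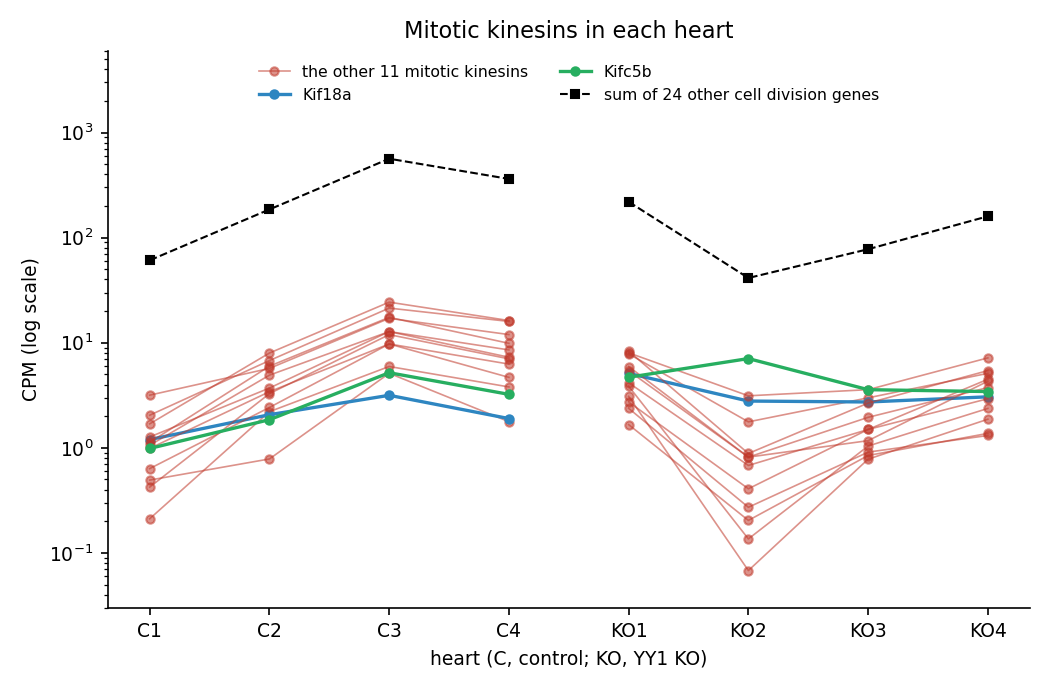
CPM on a log scale for the 13 mitotic kinesins in each heart, with the summed level of 24 other cell division genes (black squares); lines only join values of the same gene within a genotype. Control 1 and YY1 KO 2 lie low and control 3 high in nearly every line, while Kifc5b (green) is highest of all hearts in YY1 KO 2; Kif18a (blue) varies least.

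Genes of cell division outside the kinesin family were low and high in the same hearts. The 24 genes summed to 60.8, 185, 563 and 362 CPM in controls and 219, 41.3, 77.6 and 160 CPM in knockouts. Control 1 was lowest of the controls for 23 of the 24, and YY1 KO 2 had the lowest sum. The exception was Cenpf, a kinetochore gene, at 24.5, 16.3, 24.6 and 15.2 CPM in controls 1 to 4. All 24 had a negative log2 fold change (median −1.22). Cenpf fell (−2.07 ± 0.51, edgeR adjusted p = 0.0122), while Mki67 did not pass (−1.79 ± 0.86, edgeR adjusted p = 0.130). That is 4.17% of the list lower, against 17.3% of all genes, and 4 genes were called without control 1. Markers of fibroblasts and of macrophages and leukocytes moved between the same hearts. The 7 fibroblast markers summed to 909 CPM in control 1 and 1541 to 2905 CPM in controls 2 to 4, against 1691 to 4355 CPM in knockouts. The 8 macrophage and leukocyte markers summed to 285 CPM in control 1 and 345 to 494 CPM in controls 2 to 4, against 338 to 465 CPM in knockouts. Of the fibroblast markers 1 of 7 was called higher and 0 lower, and of the macrophage and leukocyte markers 0 of 8 in either direction. The 7 endothelial markers summed to 910.1, 1068, 1413 and 1385 CPM in controls 1 to 4, which ranked as in the cell division sum. In YY1 KO 1 to 4 they summed to 685, 870, 824 and 910.0 CPM. Among knockouts the order differed: YY1 KO 1, the highest in the cell division sum, was the lowest here. Of the 7 endothelial markers 4 were called lower (57.1%, against 17.3% of all genes). The part of these cell types in the mitotic pattern was not tested.

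Most mitotic members also shared a short sequence near their start sites. Dividing-cell genes are known for the cell-cycle homology region (CHR), a repressor-bound element with the letters TTTGAA or TTTAAA, often a short distance downstream of CCAAT boxes. RefSeq promoter windows (GRCm38.p6, 250 bases before to 50 after each start, both strands searched) were found for 35 of the 44 members. Of 12 mitotic members with a window, 11 held a CHR match, and in 10 it began within 50 bases of the start. The same held near the start for 1 of 13 transport members (Kif1a) and 1 of 10 others (Kif26b), and for 8.28% of all 32851 windows in the table (27.6% anywhere in the window). CCAAT was found in 8 of the 12 mitotic members, 4 of 13 transport members and 37.4% of all windows. The YY1 core CCATNTT was found in 7 of the 35 members, 3 of them mitotic, 3 transport and 1 other, and in 16.1% of all windows. A match is a description of the letters only. The Kif1a match lay in a window inside the gene, and its window at the annotated start held none. Windows of Kif2c, Kif4, Kif14, Kif17 and Kif27 also lay inside the annotated gene. Kif27 was the 1 other member with the YY1 core. Those of Kifc1 and Kifc5b share much of their sequence but count as separate members. The stretches below run from 100 bases before the start through the first 30 bases from it, 5′ to 3′. They were chosen to show 4 mitotic members with a CHR near the start, the mitotic member without a CHR match anywhere in its window, and Kif3b as a transport member. Capitals mark CCAAT (or ATTGG on the other strand), CHR (TTTGAA, or TTCAAA on the other strand) and, in Kif11, the YY1 core, which overlaps the CHR by its last base.

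Kif11 (chr19:37376282-37376411, plus strand): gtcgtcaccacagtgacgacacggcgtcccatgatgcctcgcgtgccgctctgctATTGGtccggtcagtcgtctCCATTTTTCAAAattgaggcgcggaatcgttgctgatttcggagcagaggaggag
Kif22 (chr7:127042391-127042520, minus strand): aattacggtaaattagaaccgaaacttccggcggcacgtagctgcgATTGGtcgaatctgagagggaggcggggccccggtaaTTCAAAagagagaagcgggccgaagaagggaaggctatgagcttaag
Kif23 (chr9:61946770-61946899, minus strand): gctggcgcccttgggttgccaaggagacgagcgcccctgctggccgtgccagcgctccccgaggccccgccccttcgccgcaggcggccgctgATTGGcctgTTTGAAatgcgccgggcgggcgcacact
Kifc1 (chr17:33890604-33890733, minus strand): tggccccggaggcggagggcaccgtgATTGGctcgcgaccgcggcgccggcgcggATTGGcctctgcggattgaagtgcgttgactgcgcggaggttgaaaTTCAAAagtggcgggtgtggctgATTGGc
Kif18a (chr2:109280638-109280767, plus strand): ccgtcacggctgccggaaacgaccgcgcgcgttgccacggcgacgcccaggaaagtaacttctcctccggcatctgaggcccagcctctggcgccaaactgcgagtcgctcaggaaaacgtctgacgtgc
Kif3b (chr2:153291316-153291445, plus strand): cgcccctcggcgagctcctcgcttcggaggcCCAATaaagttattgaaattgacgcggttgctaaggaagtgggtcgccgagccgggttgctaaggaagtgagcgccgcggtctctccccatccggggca

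In Kif11 and Kif22 the CHR began 19 and 17 bases before the start, and in Kif23 and Kifc1 at 2 and 1 bases after it. Kif18a, with neither CHR nor CCAAT in its window, was one of the 2 mitotic members with a positive log2 fold change, but Kifc5b, the other, held a CHR at 29 bases after its start.

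**Figure D5:**
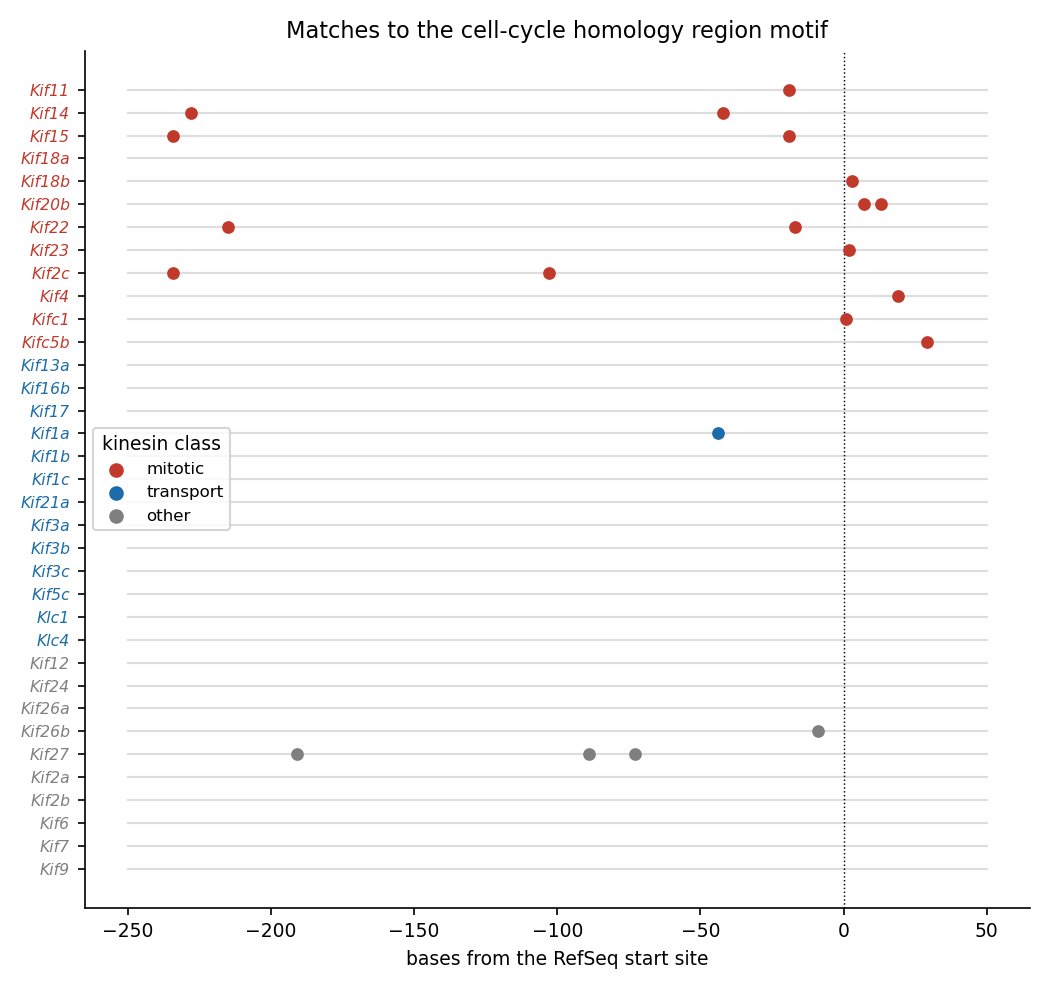
Position of CHR matches (points) relative to the RefSeq start site, in bases, in the promoter windows (grey lines) of 35 kinesin genes, coloured by class. Matches gather near the start in 10 of 12 mitotic genes and are absent from all transport genes but Kif1a.

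Partners of the kinesins were examined as lists of textbook function that hold no member. Of 24 fitted genes for kinesin adaptors and cargo linkers, 3 rose and 5 fell (12.5% and 20.8% of the list, against 21.6% and 17.3% of all genes). Trak1, the adaptor that joins kinesin-1 to mitochondria, fell from 437 ± 17.2 to 298 ± 25.8 CPM (−0.55 ± 0.09 on the log2 scale, edgeR adjusted p = 0.00232). Its partner on the mitochondrial surface Rhot2 fell (−0.53 ± 0.17, edgeR adjusted p = 0.0318), while Trak2 (0.04 ± 0.12) and Rhot1 (0.07 ± 0.09) did not pass. Map7d1, which recruits kinesin-1 to microtubules, fell from 481 ± 54.8 to 342 ± 23.3 CPM (−0.49 ± 0.11, edgeR adjusted p = 0.00764). Arl8a, a lysosomal GTPase that engages kinesins, rose from 34.5 ± 5.71 to 58.5 ± 7.39 CPM (0.76 ± 0.14, edgeR adjusted p = 0.00309). Kif1bp, a kinesin-binding inhibitor, rose (0.57 ± 0.13, edgeR adjusted p = 0.00865), and Kifap3, the third subunit of the Kif3 motor, rose with Kif3a and Kif3b (0.40 ± 0.10, edgeR adjusted p = 0.0148). The remaining calls were decreases of Fez1 and Sybu, both cargo adaptors.

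Dynein, the motor of the opposite direction, and its cofactor dynactin had more increases than decreases. Of 30 fitted genes, 11 rose and 1 fell, which is 36.7% and 3.33% of the list, against 21.6% and 17.3% of all genes. The median log2 fold change was 0.26. The adaptor gene Bicd2 rose from 208 ± 7.85 to 297 ± 21.5 CPM (0.52 ± 0.09, edgeR adjusted p = 0.00204). The light chain gene Dynlt3 rose from 57.4 ± 1.87 to 87.6 ± 13.5 CPM (0.61 ± 0.11, edgeR adjusted p = 0.00326). The light intermediate chain gene Dync1li2 (0.54 ± 0.10, edgeR adjusted p = 0.00348) and the dynactin gene Dctn2 (0.52 ± 0.10, edgeR adjusted p = 0.00364) rose as well. The heavy chain gene Dync1h1 was at 487 ± 48.5 and 475 ± 43.9 CPM (−0.03 ± 0.11) and did not pass, and Bicd1, at 3.77 ± 0.537 and 1.84 ± 0.638 CPM, was the gene that fell.

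Tubulins and microtubule-associated proteins moved both ways, with 8 of 33 fitted genes higher and 10 lower. That is 24.2% and 30.3% of the list, against 21.6% and 17.3% of all genes. Tuba4a, an adult alpha-tubulin gene, fell from 718 ± 35.6 to 188 ± 82.2 CPM (−1.93 ± 0.26 on the log2 scale, edgeR adjusted p = 0.000940). Ccdc23 (Svbp), the partner of the enzymes that detyrosinate tubulin, fell from 12.7 ± 1.07 to 6.97 ± 0.537 CPM (−0.86 ± 0.12, edgeR adjusted p = 0.000921). Hdac6, the tubulin deacetylase gene, rose from 31.3 ± 4.12 to 66.2 ± 5.82 CPM (1.08 ± 0.11, edgeR adjusted p = 0.000324), and the gamma-tubulin gene Tubg2 from 2.62 ± 0.461 to 8.43 ± 1.46 CPM (1.68 ± 0.19, edgeR adjusted p = 0.000472). With library size alone as the scale, 6 genes of this list were lower.

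The Xist difference, which did not enter the choice of members, was tested across all hearts with genotype in the model. Of the 39 fitted members 0 were called between Xist-positive and Xist-negative hearts (edgeR; 2 members at an unadjusted p under 0.05), where 6 of 13506 genes, or 0.0444%, passed. The X-linked Kif4 was among the members that did not pass.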

How the data were processed

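Each heart has 1 deposited table of unnormalised counts by gene symbol, which the authors made by trimming with Trimmomatic and aligning with STAR to mm10, per the submitters' processing notes. The annotation, the versions and the settings were not given in the sources used here. The members, their classes and the gene lists were chosen with earlier results of these data known. Counts irrespective of strand were used. Between 33.0 and 38.9% of reads were assigned to no gene and left out. Of the 24411 symbols 24063 were matched to GENCODE M21 for positions and exon lengths. Counts were scaled by TMM and tested with edgeR 4.0.16 (quasi-likelihood, robust) in R 4.3.3, without covariates, after a filter of about 10 reads (0.648 CPM) in at least 4 libraries, which kept 13506 genes. CPM use the scaled gene reads as the total, and their precision is set by reads and by the number of hearts. The labels name each library as a separate mouse, and libraries of a genotype all differed by more than sampling noise (chi-square divided by its degrees of freedom, 13.9 to 92.0).

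Yy1 came first, and all members were accounted for. Values per heart were due for members past the threshold with an absolute log2 fold change of at least 1 and for the 4 of each class with the highest mean CPM. Of the latter, Kif1b is given by range only, and Kif13a, Kif2a and Kif7 by mean and SD only. From each list of partners up to 4 genes with the smallest p were due. Trak2, Rhot1, Rhot2, Kifap3, Dync1h1 and Bicd1, and further members with values per heart, were named after their values were seen. On simulated counts of 13383 genes for this comparison, 58% of 2-fold and 11% of 1.5-fold changes were recovered and 0% of 69 calls were false. The simulation changed far fewer genes than the 38.9% that passed here, which makes its adjusted threshold stricter. These shares therefore do not measure recovery in the real comparison. Alternatives were other scalings, DESeq2 1.42.0, limma-voom (limma 3.58.1), other filters, stranded counts, a replicate block, an Xist term and leaving out each library. The subsets by Xist were added after seeing the data.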

Additional observations from a re-analysis of the deposited data

Results flagged for a closer look

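In 2 of 112 groups of 4 hearts, 1 heart stood far from the other 3, where chance gives about 1 in 20 groups. Kif18a was at 5.10 CPM in YY1 KO 1 and at 2.73 to 3.05 CPM in the other knockouts. Kif3b was at 21.7 CPM in control 1 and at 26.5 to 27.2 CPM in the other controls.

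The strand-resolved columns, which entered no comparison of the main analysis, held many reads opposite to 4 members. The share of opposite-strand reads was 47.6% for Kif20a, 56.7% for Kif27, 35.5% for Kif3c and 33.8% for Kif9, against 2.66 to 5.31% over all genes of a library. Opposite to Kif20a these reads stood at 6.89 ± 0.271 CPM in controls and 8.08 ± 0.375 CPM in knockouts. Opposite to Kif3c they were at 8.33 ± 0.975 and 7.81 ± 0.862 CPM. Opposite to Kif27 they were at 0.0158 ± 0.0316 and 0.518 ± 0.298 CPM, while its own strand was at 0.130 ± 0.0686 and 0.286 ± 0.0409 CPM (control, knockout).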

How the results depend on the processing

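No called result changed direction, but calls did change. Over 18 settings on all 8 or on 7 hearts, the 12 members past the threshold lost 47 of 216 calls, in 8 genes, and 8 of the other 27 members passed in 11 cases. Of the 16 named partner genes, Mki67, Bub1 and Cenpe newly passed without control 1 and 13 kept their side of the threshold. In size, 3 log2 fold changes of members moved by more than their standard error in the main fit. These were Kif14 without control 3 (0.00), Kif9 in stranded counts (2.06) and Kifc5b without control 3 (1.20). Without single libraries the transport members called higher numbered 3 to 5 and lower 1 to 2, the mitotic members higher 0 to 1 and lower 0 to 5, and the other members lower 1 to 2. The lower calls numbered 3 to 5 among adaptors, 1 to 2 in the dynein list, 6 to 11 among tubulins and 1 to 4 among cell division genes. DESeq2 called 1 mitotic member and 2 dynein genes lower. Other members called lower numbered 1 with limma-voom, 1 with an Xist term and 0 with library size alone, under which 6 tubulin genes were lower. Without a filter 2 other members were higher. Library size alone gave 63.6% of calls as higher, against 55.5%, and a median of 0.07 over all genes. In the Xist-negative hearts, where 11.8% of all genes were lower, 2 transport members were higher and 1 lower, 9 mitotic and 1 other member lower, 1730 of all tested genes higher in YY1 KO, and 2 adaptors, 0 dynein genes and 15 cell division genes lower, with 5 tubulin genes higher. In the Xist-positive hearts all of these counts were 0. The cause was not tested. Deviations of same-numbered hearts had correlations of −0.46, 0.34, −0.06 and 0.27, and those of differently numbered hearts spanned −0.42 to 0.48. Xist status was the same in both genotypes at every number. Whether the numbers pair hearts cannot be told from so few hearts. With a replicate block 2 transport members were higher, and 1 other member, 3 adaptors, 0 dynein genes and 6 tubulin genes were lower. Kif1a, Kif1c, Kif3a, Kif5c, Kif6 and Kif26b lost their calls with this block. In the simulation, which changed far fewer genes than passed here, 11% of 1.5-fold changes were recovered.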
